A study of Homo sapiens with 4 samples.

Results

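H19, KCNQ1OT1, GNAS-AS1 and DLGAP2-AS1 are long noncoding RNAs (lncRNAs) transcribed from loci at which imprinting has been described. They were taken by name: every row of the deposited lncRNA table whose name before the final colon and number was one of these 4 belonged to the set, whatever its value. This gave 45 isoform rows of the 104786 rows in the table, and 4 genes of the 46902 to which the rows belong. GNAS-AS1 had 11 rows, KCNQ1OT1 3, DLGAP2-AS1 21 and H19 10.

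The values came from MDA-MB-231-P3, a subline of MDA-MB-231, and from MDA-MB-231 itself, a human cell line of triple-negative breast cancer, with 2 libraries of each. To make the subline, MDA-MB-231 cells were put into mouse tail veins, recovered from lung tumours and grown in culture, over 3 rounds, per the labels' protocols; the parental line had none of these rounds. Both lines were grown in culture before RNA was taken, and no other treatment or genetic change is given for either. MDA-MB-231-P3 is 1 subline, so features of that line and features of selection in the lung cannot be told apart, and it is not stated that the 2 libraries per line were separate cultures, so the p-values may reflect technical spread alone.

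In genomic imprinting, a gene is expressed mainly from the copy inherited from one parent, under the control of DNA methylation set in the germ line. Many imprinted loci make a lncRNA, and some of these lncRNAs silence neighbouring genes on the same chromosome copy. H19 is a maternally expressed RNA that shares enhancers with IGF2, the gene for insulin-like growth factor 2, and is abundant in fetal tissues. KCNQ1OT1 is a long, largely nuclear RNA made from the paternal copy, antisense to the potassium channel gene KCNQ1, and it silences a cluster that includes the cell-cycle inhibitor gene CDKN1C. GNAS-AS1 is the paternally expressed antisense RNA of GNAS, the gene for the stimulatory G protein alpha subunit; in mice its counterpart Nespas silences the NESP transcript of the locus. DLGAP2-AS1 is antisense to DLGAP2, which codes for a synaptic scaffold protein and has been listed as imprinted in some human tissues. The deposited values hold no allele information, so imprinting itself was not measured here.

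The table of RefSeq promoter windows (GRCh38.p14, 250 bases before to 50 bases after a gene's start) matched 1 of the 4 symbols, H19. Its window, chr11:2001217-2001516 on the minus strand, is shown because methylation of CG dinucleotides is the mark by which such loci are controlled. The CG dinucleotides are in capitals.
H19: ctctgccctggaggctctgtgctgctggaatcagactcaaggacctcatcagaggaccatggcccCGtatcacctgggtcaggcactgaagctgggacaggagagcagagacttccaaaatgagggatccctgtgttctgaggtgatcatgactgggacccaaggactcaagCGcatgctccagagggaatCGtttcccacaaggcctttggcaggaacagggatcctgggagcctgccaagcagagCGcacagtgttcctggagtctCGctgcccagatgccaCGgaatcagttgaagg

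The H19 window holds 6 CG dinucleotides, against a median of 14 over 34943 promoter windows of the same table, and 57.7% G or C against a median of 58.7%. It surrounds the outermost start of the RefSeq gene model. H19 has several annotated starts, and the deposited rows do not tell which of them was used. The letters TGCCGC, known as the core that the imprinting factor ZFP57 binds, do not occur in it on either strand, and 16.7% of all windows hold them.

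H19 is also the precursor of miR-675, and the miRNA genes of miR-296 and miR-298 lie next to GNAS-AS1 on the same strand. Their mature RefSeq sequences (GRCh38.p14) are shown since these are the small RNAs of the 2 loci, with the seed, bases 2 to 8, in capitals.
hsa-miR-675-5p: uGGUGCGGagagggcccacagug
hsa-miR-675-3p: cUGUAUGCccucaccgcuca
hsa-miR-296-5p: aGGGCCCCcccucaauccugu
hsa-miR-296-3p: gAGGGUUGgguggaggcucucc
hsa-miR-298: aGCAGAAGcagggagguucuccca
No 2 of these 5 share a seed. Both miR-675 arms fall inside the RefSeq span of H19, and miR-298 lies 615 bases beyond the 3' end of the RefSeq span of GNAS-AS1. The table holds lncRNA rows, so no level of these miRNAs is given.

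All 4 genes are annotated as lncRNAs on the minus strand (GENCODE release 44, in its version for GRCh37, which is hg19). GNAS-AS1 lies on chromosome 20 between 57393973 and 57425958, KCNQ1OT1 on chromosome 11 between 2618538 and 2721233, DLGAP2-AS1 on chromosome 8 between 1513675 and 1570583, and H19 on chromosome 11 between 2016396 and 2025782. The annotated exons of GNAS-AS1 share 30.8% of their bases with exons on the opposite strand, where GNAS lies. For DLGAP2-AS1 this share is 2.72%, for KCNQ1OT1 it is 0.131%, and for H19 no base is shared. These shares count exons only. KCNQ1OT1 and DLGAP2-AS1 also overlap KCNQ1 and DLGAP2 outside their exons, so a low share does not bound reads from unspliced RNA of the opposite gene. The libraries keep the strand of the RNA, but whether the counting used it is not given in the sources used here, so values of GNAS-AS1, DLGAP2-AS1 and KCNQ1OT1 are uncertain to the extent that reads of the opposite gene could have entered them. The deposited isoform numbers were not matched to annotated transcripts.

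Levels are given as FPKM, fragments scaled to transcript length and library size, summed over the isoform rows of a gene. In all 4 libraries DLGAP2-AS1 was the most abundant of the set and H19 the least. GNAS-AS1 and KCNQ1OT1 stood in the opposite order in the 2 lines: KCNQ1OT1 exceeded GNAS-AS1 in both MDA-MB-231-P3 libraries, and GNAS-AS1 exceeded KCNQ1OT1 in both MDA-MB-231 libraries. None of the 4 differences between the lines passed the test over all genes.

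GNAS-AS1 had 1.77 and 1.48 FPKM in MDA-MB-231-P3 replicates 1 and 2, against 3.66 and 3.92 FPKM in MDA-MB-231 replicates 1 and 2. Both libraries of the subline lay below both of the parent, as did 21.4% of all tested genes. The means were 1.63 ± 0.210 FPKM in MDA-MB-231-P3 and 3.79 ± 0.185 FPKM in MDA-MB-231 (SD, n = 2 each), a level 2.33-fold lower in the subline. Bulk values cannot tell fewer cells with the RNA from less RNA per cell. In log2(FPKM + 0.5), a scale on which low values appear to change less than they do, the difference was -1.02 (SE 0.26, 95% interval -1.71 to -0.32, limma adjusted p = 0.268). Of all tested genes, 7.31% had a lower difference.

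KCNQ1OT1 had 2.14 and 1.62 FPKM in MDA-MB-231-P3, against 1.15 and 0.859 FPKM in MDA-MB-231. Here both subline libraries lay above both parental ones, as did 28.9% of all tested genes. The means of 1.88 ± 0.371 FPKM in MDA-MB-231-P3 and 1.00 ± 0.204 FPKM in MDA-MB-231 (SD, n = 2 each) were 1.88-fold apart. The log2 difference was 0.66 (SE 0.29, 95% interval -0.12 to 1.45, limma adjusted p = 0.376). Differences of this size or larger in the same direction were common, and 77.0% of tested genes had a lower one.

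DLGAP2-AS1 had 15.7 and 23.3 FPKM in MDA-MB-231-P3, against 16.8 and 18.9 FPKM in MDA-MB-231. The parental values lay between those of the subline. The means were 19.5 ± 5.36 FPKM in MDA-MB-231-P3 and 17.8 ± 1.50 FPKM in MDA-MB-231 (SD, n = 2 each). The log2 difference of 0.10 (SE 0.31, 95% interval -0.73 to 0.93, limma adjusted p = 0.889) was smaller than its error and turned to -0.010 when each library was centred on its median. Without MDA-MB-231-P3 replicate 2, the library with the highest value, it was -0.18, and without MDA-MB-231-P3 replicate 1 it was 0.38.

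H19 had 0.434 and 0.312 FPKM in MDA-MB-231-P3, against 0.614 and 0.762 FPKM in MDA-MB-231. It reached the mean of 0.5 FPKM needed for testing only through its parental values, so its order between the lines is partly set by that minimum. The means were 0.373 ± 0.0860 FPKM in MDA-MB-231-P3 and 0.688 ± 0.105 FPKM in MDA-MB-231 (SD, n = 2 each). The log2 difference was -0.44 (SE 0.37, 95% interval -1.43 to 0.55, limma adjusted p = 0.571). It depended on the pseudocount, being -0.74 with 0.1.

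**Figure D1:**
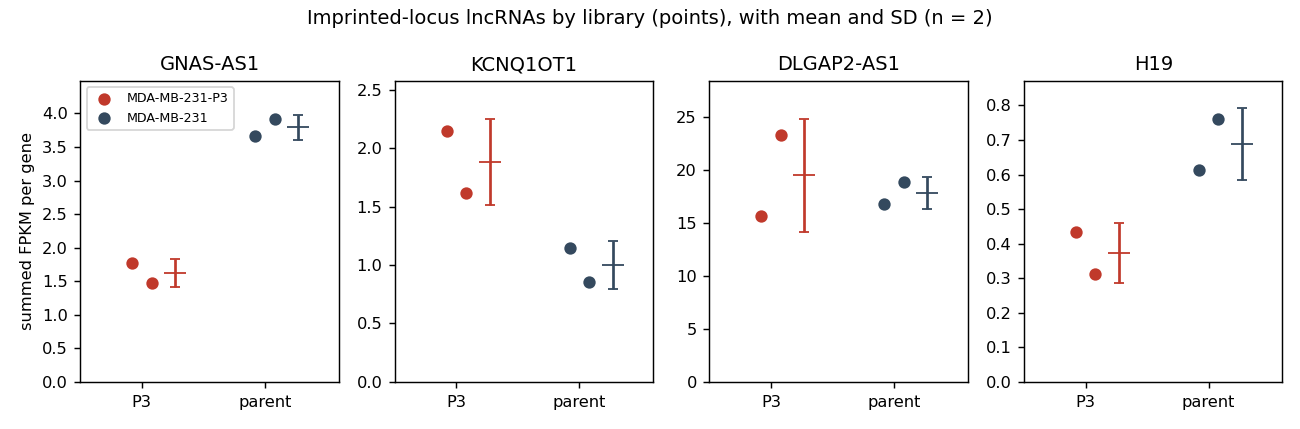
Summed FPKM of each lncRNA gene in each library (points; MDA-MB-231-P3 left, MDA-MB-231 right), with the mean and SD of the 2 libraries of a line beside them; each panel has its own linear axis from 0. GNAS-AS1 lay at 1.48 to 1.77 FPKM in MDA-MB-231-P3 and at 3.66 to 3.92 FPKM in MDA-MB-231, KCNQ1OT1 was arranged the other way, and the DLGAP2-AS1 values overlapped.

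Among the 6444 genes tested, ordered by mean level, DLGAP2-AS1 ranked 375, GNAS-AS1 1894, KCNQ1OT1 3201 and H19 6235, so that only 3.24% of tested genes had a lower mean than H19. The lowest value of DLGAP2-AS1 in any library, 15.7 FPKM, was above the highest of the other 3, 3.92 FPKM. The neighbouring levels of GNAS-AS1 and KCNQ1OT1 in MDA-MB-231-P3, 1.63 ± 0.210 and 1.88 ± 0.371 FPKM (SD, n = 2), did not differ beyond their spread. The ratio of summed GNAS-AS1 to summed KCNQ1OT1 within a library was 0.828 and 0.913 in MDA-MB-231-P3, against 3.19 and 4.57 in MDA-MB-231. This ratio was computed after the levels were seen, and its lack of overlap follows from theirs, so no test is given. It does not depend on how a library was scaled.

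Limma, with adjustment over all genes, called 0 of the 4 genes, where 0.0621% of all tested genes were called. An unadjusted limma p under 0.05 was reached by 1 of them, GNAS-AS1. In that direction 5.68% of all tested genes reached it, and 9.5% did in the other. The 4 log2 differences, 2 of them positive, had a median of -0.17. H19 reached the minimum mean only through its parental values, so the signs and the median of the 4 are partly set by that minimum. Over all 6444 genes 3524 were positive and 2920 negative, and the median was 0.09. This median moved by -0.12 with quantile normalization and by -0.11 with centring, and under both GNAS-AS1 and H19 stayed below it and KCNQ1OT1 above it.

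The isoform rows showed what each sum was made of. KCNQ1OT1 was carried by 1 row, KCNQ1OT1:4, with 100% of the sum in all libraries when rounded, and its other rows did not exceed 2.54e-11 FPKM. DLGAP2-AS1 was nearly as simple. Its row DLGAP2-AS1:21 had 14.2 and 21.7 FPKM in MDA-MB-231-P3, against 15.5 and 16.4 FPKM in MDA-MB-231. That was 90.4% and 93.3% of the gene in MDA-MB-231-P3 and 92.5% and 86.9% in MDA-MB-231. It led in every library, so the wide gap between the 2 subline libraries of DLGAP2-AS1 was a gap in this row.

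The 2 minor rows of DLGAP2-AS1 that reached a mean of 0.5 FPKM varied more between libraries of one line than between the lines. DLGAP2-AS1:24, which reached that mean only through its parental values, had 0.176 and 0.672 FPKM in MDA-MB-231-P3, against 0.454 and 1.24 FPKM in MDA-MB-231. DLGAP2-AS1:25 had 0.825 and 0.346 FPKM in MDA-MB-231-P3, against 0.466 and 0.644 FPKM in MDA-MB-231. In both rows the lines overlapped. DLGAP2-AS1:27 and DLGAP2-AS1:31, named after their values were seen, did not overlap and went opposite ways. DLGAP2-AS1:27 had 0.166 and 0.136 FPKM in MDA-MB-231-P3, against 0.00199 FPKM and near 0 in MDA-MB-231. For DLGAP2-AS1:31 the values were 0.0480 and 0.0314 FPKM in MDA-MB-231-P3, against 0.240 and 0.0805 FPKM in MDA-MB-231. Neither reached the minimum for testing. Among tested rows, both subline libraries lay above both parental ones in 27.3% and below them in 20.7%. Both rows are among the other 18, which did not exceed 0.332 FPKM in any library, and 9 of the 21 rows were under 0.01 FPKM in all 4.

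GNAS-AS1 was spread over several rows, and they did not all differ in the same way. GNAS-AS1:16 had 0.676 and 0.0663 FPKM in MDA-MB-231-P3, against 1.54 and 1.85 FPKM in MDA-MB-231. Both subline libraries lay below both parental ones, and they were also far apart from each other. The log2 difference of GNAS-AS1:16 was -1.42 (SE 0.47, 95% interval -2.71 to -0.13, limma adjusted p = 0.363). This row reached the minimum mean of 0.5 FPKM only through its parental values, so its direction is partly set by that minimum. The difference was -0.90 without MDA-MB-231-P3 replicate 2, the library with the lowest value, and -2.32 with a pseudocount of 0.1.

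GNAS-AS1:3 had 0.686 and 0.634 FPKM in MDA-MB-231-P3, against 0.599 and 0.498 FPKM in MDA-MB-231. Its log2 difference was 0.15 (SE 0.36, 95% interval -0.82 to 1.11, limma adjusted p = 0.870), and it turned to -0.013 with quantile normalization. GNAS-AS1:12 was as even, with 0.411 and 0.368 FPKM in MDA-MB-231-P3, against 0.371 and 0.323 FPKM in MDA-MB-231. These 2 rows together held 1.10 and 1.00 FPKM in MDA-MB-231-P3, against 0.971 and 0.822 FPKM in MDA-MB-231. The pair was chosen after its values were seen, so no test is given. All remaining GNAS-AS1 rows together held 0.678 and 0.475 FPKM in MDA-MB-231-P3, against 2.69 and 3.10 FPKM in MDA-MB-231.

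Several of those remaining rows were high in 1 parental library only. GNAS-AS1:9 was listed at 0 in both MDA-MB-231-P3 libraries, and at 0 and 1.14 FPKM in MDA-MB-231. GNAS-AS1:2 was listed at 9.27e-07 and 0.00562 FPKM in MDA-MB-231-P3, against 0.381 and 0.0117 FPKM in MDA-MB-231. GNAS-AS1:1 was high in one library of the subline instead, with 0.00162 and 0.391 FPKM in MDA-MB-231-P3, against 0.152 and 0.0929 FPKM in MDA-MB-231. GNAS-AS1:16, GNAS-AS1:3 and GNAS-AS1:12 made up most of both parental sums, and much of the remainder came from different rows in the 2 parental libraries. The other 5 rows of GNAS-AS1 did not exceed 0.356 FPKM in any library.

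Leaving GNAS-AS1:16 out of the sum left 1.10 and 1.41 FPKM in MDA-MB-231-P3, against 2.12 and 2.07 FPKM in MDA-MB-231. The log2 difference was then -0.57 (SE 0.27, limma adjusted p = 0.397), and without GNAS-AS1:9 in place of it -0.80 (SE 0.28, limma adjusted p = 0.313). Both of these sums were chosen after the data were seen. The leading row of GNAS-AS1 was GNAS-AS1:3 in both MDA-MB-231-P3 libraries, with 38.7% and 42.9% of the gene, and GNAS-AS1:16 in both MDA-MB-231 libraries, with 42.0% and 47.3%. In MDA-MB-231-P3 replicate 1 the lead was narrow, since GNAS-AS1:16 held 38.1% there. Among the 3028 tested genes with more than 1 row, 4.33% had one leading row in both libraries of the subline and another in both libraries of the parent.

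H19 had no row with a mean of 0.5 FPKM, and its leading row changed from library to library. H19:14 led in MDA-MB-231-P3 replicate 1 with 47.9% of the gene and in MDA-MB-231 replicate 2 with 49.7%. H19:7 led in MDA-MB-231-P3 replicate 2 with 68.6%, and H19:8 led in MDA-MB-231 replicate 1 with 63.2%. The 3 leading rows thus crossed the lines. Of the tested genes with more than 1 row, 14.6% had 3 different leading rows in the 4 libraries.

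The H19 rows showed the same instability in FPKM. H19:8 was listed at 0.00495 and 0.00677 FPKM in MDA-MB-231-P3, against 0.388 FPKM and near 0 in MDA-MB-231. H19:14 was listed at 0.208 FPKM and near 0 in MDA-MB-231-P3, against 0.00238 and 0.379 FPKM in MDA-MB-231. H19:14 was thus high in 1 library of each line. H19:20 was listed at 0.1003 and 0.0914 FPKM in MDA-MB-231-P3, against 0.00112 and 0.361 FPKM in MDA-MB-231. H19:7 was listed at 0.120 and 0.214 FPKM in MDA-MB-231-P3, against 0.217 and 0.0200 FPKM in MDA-MB-231. In each of these 4 rows the 2 parental libraries were farther apart than the 2 lines on average. The other 6 rows stayed below 0.01 FPKM throughout. In MDA-MB-231 the sum of H19 had an SD of 0.105 FPKM, and the lowest SD of these 4 rows was 0.139 FPKM, for H19:7. In MDA-MB-231-P3 this order did not hold, with an SD of 0.0860 FPKM for the sum and 0.00631 FPKM for H19:20. Splitting reads between isoforms can leave a row at or near 0, and whether it did so here was not tested.

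**Figure D2:**
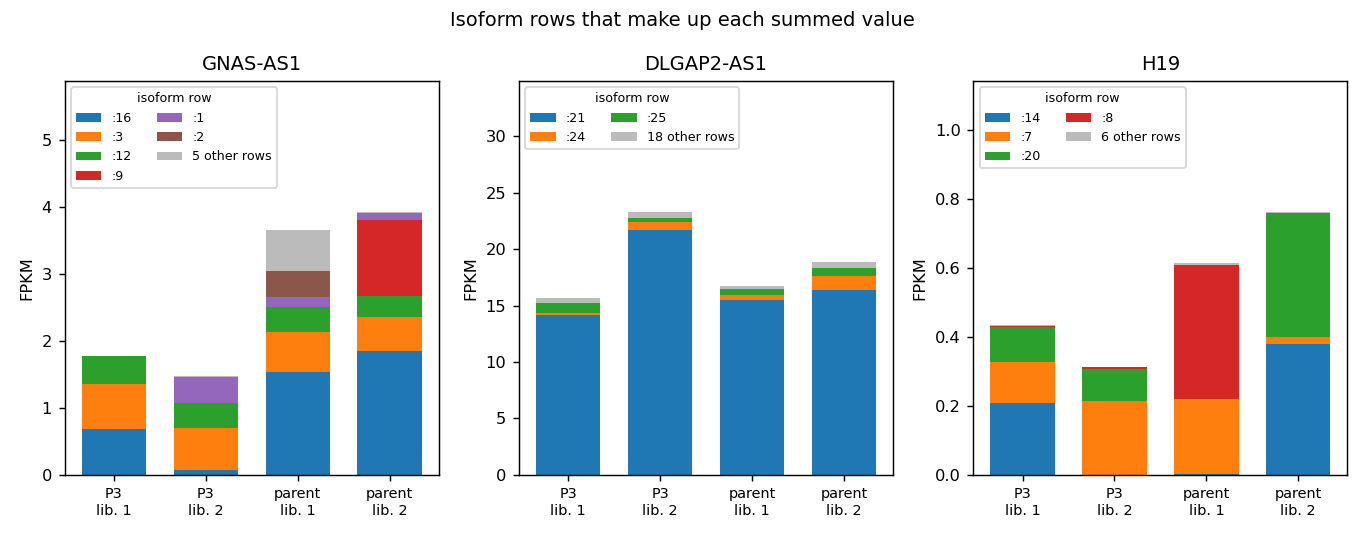
FPKM of the isoform rows of GNAS-AS1, DLGAP2-AS1 and H19 stacked per library, MDA-MB-231-P3 left and MDA-MB-231 right, with colours for rows that have a mean of at least 0.5 FPKM or at least 10% of the gene in some library and grey for all others. GNAS-AS1:16 was the largest block in both MDA-MB-231 libraries (1.54 and 1.85 FPKM) and GNAS-AS1:3 and GNAS-AS1:12 kept similar heights throughout, while the blocks of H19 differed from library to library.

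In the test of single rows, 6 of the 45 rows had a mean of at least 0.5 FPKM: DLGAP2-AS1:21, DLGAP2-AS1:24, DLGAP2-AS1:25, GNAS-AS1:3, GNAS-AS1:16 and KCNQ1OT1:4. Limma called 0 of these 6 with an adjusted p under 0.05, where 0% of all 8432 tested rows were called. An unadjusted limma p under 0.05 was reached by 1 of the 6, GNAS-AS1:16, in the lower direction, with the limit given above, as by 5.46% of all tested rows, and by none in the higher direction, as by 7.87% of all tested rows. Both subline libraries lay below both parental ones in GNAS-AS1:16, as in 20.7% of all tested rows, and above them in GNAS-AS1:3 and KCNQ1OT1:4, as in 27.3%. The 6 log2 differences had a median of 0.07, against 0.09 over all tested rows. GNAS-AS1:16 and DLGAP2-AS1:24 reached the minimum mean only through their parental values, so the median of the 6 is partly set by that minimum.

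**Figure D3:**
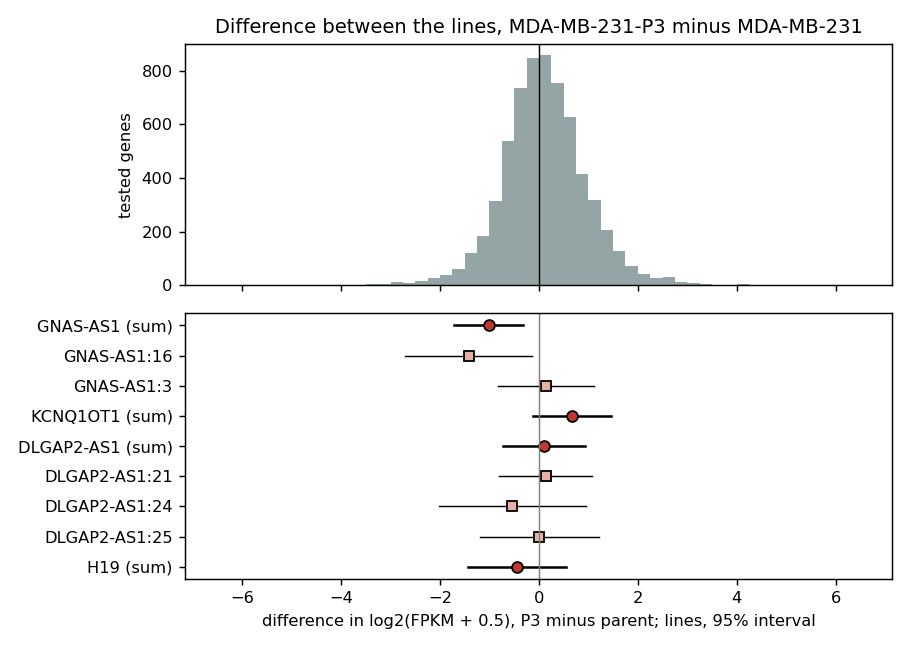
Top, histogram of the difference in log2(FPKM + 0.5), MDA-MB-231-P3 minus MDA-MB-231, over the 6444 tested genes; bottom, the same difference for the 4 summed lncRNA genes (circles) and their tested isoform rows (squares) with 95% intervals. The intervals of GNAS-AS1 and GNAS-AS1:16 lay below 0 before adjustment, and those of all other entries spanned 0; KCNQ1OT1 has 1 tested row with the same difference as its sum and is drawn once.

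Other lncRNAs of the same loci were taken from a list of names, including rows named for a neighbouring gene (lnc-GENE-number, where the name gives the neighbour and not a function). None of them passed the test over all genes in any of the 4 loci. In the GNAS region 5 of 21 listed lncRNAs were tested, 1 with a positive and 4 with a negative difference. Their median was -0.28, against 0.09 over all 6444 tested genes, of which 2920 were negative. The most abundant, lnc-CTSZ-7, had 10.3 and 24.1 FPKM in MDA-MB-231-P3, against 7.74 and 0 FPKM in MDA-MB-231. Next came lnc-CTSZ-2, with 1.55 and 2.04 FPKM in MDA-MB-231-P3 against 2.79 and 1.83 FPKM in MDA-MB-231, which overlapped. The third, lnc-NPEPL1-3, had 1.32 FPKM and near 0 in MDA-MB-231-P3, against 0.0328 and 6.35 FPKM in MDA-MB-231. Libraries of one line differed widely in lnc-CTSZ-7 and lnc-NPEPL1-3.

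In the KCNQ1 region 4 of 13 listed lncRNAs were tested, and all 4 differences were positive, though lnc-TRPM5-1 turned negative with quantile normalization. Their median was 0.34, against 0.09 over all 6444 tested genes, of which 3524 were positive. None of the 4 had an unadjusted limma p under 0.05. Of the 4, lnc-SLC22A18-6 had 1.16 and 1.91 FPKM in MDA-MB-231-P3, against 0.903 and 0.468 FPKM in MDA-MB-231 (log2 difference 0.78, SE 0.37, limma adjusted p = 0.405). Both of its subline libraries lay above both parental ones, as in 28.9% of all tested genes. Values of lnc-TRPM5-1 overlapped, at 0.486 and 1.11 FPKM in MDA-MB-231-P3 against 0.522 and 0.811 FPKM in MDA-MB-231. So did those of lnc-TSSC4-1, at 0.621 and 0.838 FPKM in MDA-MB-231-P3 against 0.173 and 1.15 FPKM in MDA-MB-231. The fourth is lnc-CDKN1C-1, named for the main growth-restraining gene of the cluster, which was listed at 0.632 and 0.613 FPKM in MDA-MB-231-P3, against 0 and 0.823 FPKM in MDA-MB-231. It reached the minimum mean only through its subline values, so its sign, and with it the count and the median, are partly set by that minimum.

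In the DLGAP2 region 5 of 41 listed lncRNAs were tested, 3 with a positive and 2 with a negative difference, and a median of 0.05 that turned to -0.12 with quantile normalization and -0.059 with centring, where lnc-CLN8-4 changed sign. The most abundant was lnc-ERICH1-13, with 96.4 and 68.9 FPKM in MDA-MB-231-P3, against 42.8 and 40.5 FPKM in MDA-MB-231. Its subline values lay above its parental ones, and its log2 difference was 0.96 (SE 0.29, limma adjusted p = 0.290). It was the 1 lncRNA of the 4 regional lists with an unadjusted p under 0.05, which 9.5% of all tested genes had in the higher direction. Following it, lnc-FBXO25-2 had 3.68 and 3.05 FPKM in MDA-MB-231-P3, against 2.27 and 1.92 FPKM in MDA-MB-231 (log2 difference 0.57, SE 0.27, limma adjusted p = 0.398). The third, lnc-CLN8-4, had 0.775 and 0.680 FPKM in MDA-MB-231-P3, against 1.04 and 0.408 FPKM in MDA-MB-231. Both subline libraries lay above both parental ones in lnc-ERICH1-13 and lnc-FBXO25-2, as in 28.9% of all tested genes. The values of DLGAP2-AS1 itself overlapped.

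In the H19 region none of 5 listed lncRNAs reached the level for testing. The highest, lnc-TNNT3-1, was listed at 0.360 and 0.483 FPKM in MDA-MB-231-P3, against 0.855 and 0.156 FPKM in MDA-MB-231. Above 0 in MDA-MB-231 replicate 2 only, lnc-SYT8-4 was listed at 0.0794 FPKM there. IGF2-AS, the antisense RNA of the IGF2 gene, was listed at 0 in both MDA-MB-231-P3 libraries, against 0.0184 and 0.0233 FPKM in MDA-MB-231. H19 itself is not on this list, and it passed the testing minimum only through its parental values.

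A list of 33 names linked with imprinted loci included IGF2-AS and KCNQ1DN of the regions above and otherwise loci elsewhere in the genome. Of these names 16 had rows and 1 was tested. This was LINC00526, whose place on that list is uncertain, with 1.97 and 1.23 FPKM in MDA-MB-231-P3, against 1.50 and 0.875 FPKM in MDA-MB-231 (log2 difference 0.32, SE 0.36, limma adjusted p = 0.679). None of the other 15 exceeded 0.518 FPKM in any library. The most abundant of them was DLX6-AS1, an antisense RNA of a homeobox gene, listed at 0.0447 and 0.462 FPKM in MDA-MB-231-P3, against near 0 and 0.518 FPKM in MDA-MB-231. KCNQ1DN, a lncRNA of the KCNQ1 cluster, was listed at 0.108 and 0 FPKM in MDA-MB-231-P3, against 0.0342 and 0 FPKM in MDA-MB-231, and MESTIT1, an antisense RNA of the MEST locus, at 0.00917 and 0.0400 FPKM in MDA-MB-231-P3, against near 0 and 0.0255 FPKM in MDA-MB-231. AIRN, the antisense RNA that silences Igf2r in mice, and PEG3-AS1 were listed at 0 in all libraries. The 4 lncRNAs described here are not among the 33 names. Names without rows could not be tested, so nothing is said of their levels.

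The genes whose pattern over the 4 libraries was nearest to each lncRNA were found by the distance between centred log2(FPKM + 0.5) values, as a description over 4 libraries. For GNAS-AS1 these were TCONS_00012981 (distance 0.0566), TCONS_00024677 and lnc-GRIP1-8. TCONS_00012981 had 2.63 and 2.16 FPKM in MDA-MB-231-P3, against 5.35 and 5.42 FPKM in MDA-MB-231. For KCNQ1OT1 they were lnc-DRICH1-2 (distance 0.0416), lnc-CMYA5-4 and lnc-RBM28-1. For DLGAP2-AS1 they were KCTD21-AS1 (distance 0.0622), lnc-RNF5-7 and lnc-ARSB-4, and for H19 they were lnc-GMPS-1 (distance 0.0260), TCONS_00020759 and lnc-ERV3-1-10.

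The libraries themselves listed 57477 and 55862 rows above 0 in MDA-MB-231-P3 and 52357 and 50931 in MDA-MB-231. Summed over all rows, the values came to 351135 and 372689 FPKM in MDA-MB-231-P3, against 460282 and 500086 FPKM in MDA-MB-231. Scaling to these totals, which would move all differences upward, was not run. Read depth was unknown because the values are FPKM. Markers of mesenchymal-like breast cancer cells, MIR100HG, CYTOR and MIR4435-2HG, were all listed well above the testing minimum, with a summed level of 475 and 493 FPKM in MDA-MB-231-P3 and 909 and 692 FPKM in MDA-MB-231. CYTOR and MIR4435-2HG, which carried this sum, were lower in both subline libraries, as were 21.4% of all tested genes. MIR100HG had 44.2 and 41.2 FPKM in MDA-MB-231-P3, against 23.6 and 22.8 FPKM in MDA-MB-231, and 28.9% of all tested genes were likewise higher in both. Limma called none of CYTOR (adjusted p = 0.313), MIR4435-2HG (adjusted p = 0.439) and MIR100HG (adjusted p = 0.282). Luminal breast markers summed to at most 0.0204 FPKM, with DSCAM-AS1 at or near 0 in every library. Of the leukocyte markers 4 of 5 were listed, with a sum of 2.69 to 3.17 FPKM in MDA-MB-231-P3 and 1.58 to 3.65 FPKM in MDA-MB-231, nearly all from PRKCQ-AS1 and LINC00926, while LINC00861 was at or near 0. The markers taken for lung, 2 of 3 listed, were NKX2-1-AS1 and FENDRR, and neither reached the mean needed for testing. They summed to 0.529 to 0.667 FPKM in MDA-MB-231-P3 and 0.357 to 0.446 FPKM in MDA-MB-231, mostly from NKX2-1-AS1. FENDRR was listed at 0.0899 and 0.0246 FPKM in MDA-MB-231-P3, against 0 and 0 FPKM in MDA-MB-231, all far below the testing minimum. Both subline libraries lay above both parental ones in NKX2-1-AS1 and FENDRR, as in 28.9% of all tested genes. No gain of lung markers is read from these values. Fibroblast and vessel markers, 3 of 4 listed, summed to 4.45 to 5.06 FPKM in MDA-MB-231-P3 and 5.24 to 7.93 FPKM in MDA-MB-231. Most of this came from LINC00702, with 4.70 and 4.19 FPKM in MDA-MB-231-P3, against 7.39 and 5.01 FPKM in MDA-MB-231 (limma adjusted p = 0.538). HHIP-AS1 overlapped between the lines, and CARMN, at no more than 0.0509 FPKM, was higher in both subline libraries. The part of these markers in the differences described above was not tested.

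**Figure D4:**
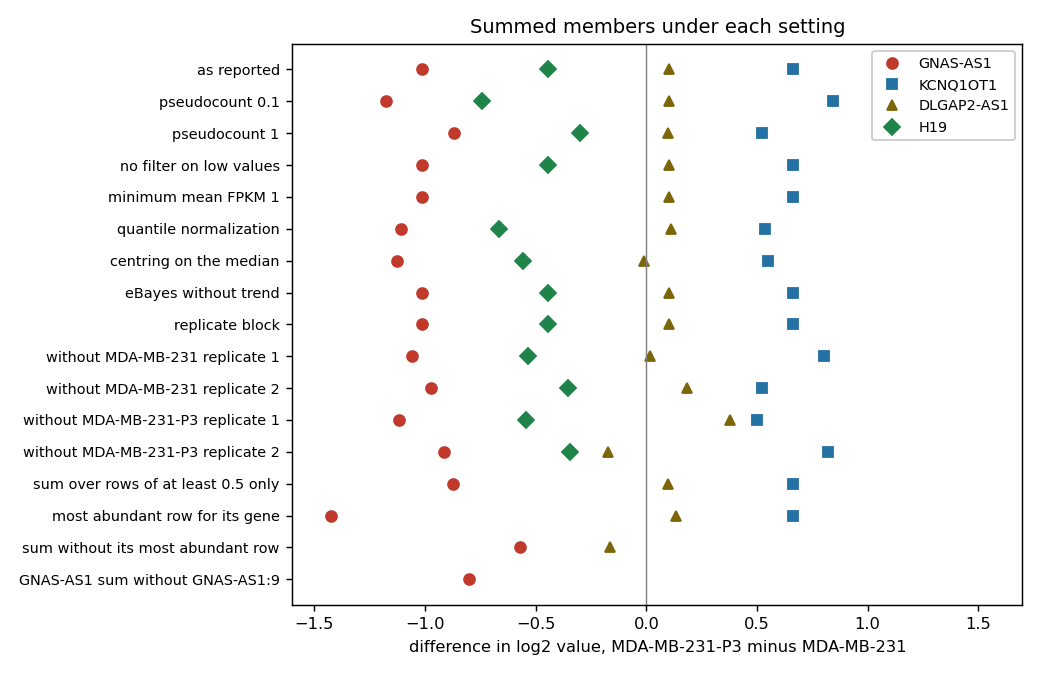
Difference in log2 value, MDA-MB-231-P3 minus MDA-MB-231, of each summed lncRNA gene as reported (top line) and under each other setting; a missing symbol means that the gene did not reach the minimum under that setting or that the setting was run for another gene. GNAS-AS1 (-1.42 to -0.57) and H19 stayed below 0 and KCNQ1OT1 (0.50 to 0.85) above 0 in every setting drawn, and DLGAP2-AS1 had values on both sides.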

How the data were processed

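Libraries of MDA-MB-231-P3 and MDA-MB-231 kept the RNA strand and were read from both ends over 150 bases, from the mRNA fraction. The authors used HISAT2 and hg19 and deposited FPKM per lncRNA isoform, per the labels' protocols, and StringTie is named in the submitters' processing notes. Neither tool versions nor the lncRNA annotation are given in these sources. All 104786 values of each per-sample file equalled the series table.

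Libraries were grouped by the labelled line, 2 each, with no block. Rows, or sums per gene, with a mean of at least 0.5 FPKM were tested on log2(FPKM + 0.5) over the whole table with limma 3.58.1 in R 4.3.3 (eBayes with trend, two-sided, Benjamini-Hochberg adjusted, threshold 0.05), after the test had been tested on simulated data. Tables and plots used Python 3.11.15, pandas 2.3.3, scipy 1.17.1 and matplotlib 3.10.9.

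The genes and lists were chosen with earlier results of these data known. Named were the 4 genes, their rows with a mean of at least 0.5 FPKM or at least 10% of the gene in a library, the 3 most abundant and all called lncRNAs of each list, and the 3 nearest patterns per gene. The GNAS-AS1 rows summed as a pair, DLGAP2-AS1:27, lnc-CDKN1C-1, AIRN and PEG3-AS1 were picked after their values were seen. Other settings were pseudocounts of 0.1 and 1, no minimum or 1 FPKM, quantile normalization, centring, no trend and the replicate number as a block. Further ones were other ways of summing rows, the most abundant row in place of the sum, and leaving out each library.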

Additional observations from a re-analysis of the deposited data

How the results depend on the processing

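No adjusted p of the 4 summed genes or their 6 tested rows passed the threshold under any setting that gave a value. GNAS-AS1, KCNQ1OT1 and H19 kept their direction throughout, and without single libraries they ranged from -1.12 to -0.91, 0.50 to 0.82 and -0.55 to -0.34. DLGAP2-AS1 turned to -0.010 with centring, to -0.16 without its most abundant row (a setting chosen after seeing the data), and ranged from -0.18 to 0.38 without single libraries. Its row DLGAP2-AS1:25 turned to -0.013 with a pseudocount of 0.1, -0.15 with quantile normalization and -0.077 with centring, and ranged from -0.31 to 0.33 without single libraries, as DLGAP2-AS1:21 did from -0.16 to 0.43. GNAS-AS1:3 turned to -0.013 with quantile normalization.

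Over the whole table, the 4 called genes became 0 with a pseudocount of 1, without a minimum, without the trend, with the most abundant row for its gene or without any one library (0 to 0), and 2 with quantile normalization or with sums of rows of at least 0.5 FPKM. The count of 0 called rows became 6 with a minimum of 1 FPKM. Unadjusted p under 0.05 was reached by 978 genes, against 2500 without a minimum and 564 to 906 without single libraries. It was reached by 1124 rows, against 3434 without a minimum, 742 with a minimum of 1 FPKM and 746 to 1113 without single libraries. More or fewer features were tested where the minimum differed, and otherwise the cause was not tested. H19 gave no value with a minimum of 1 FPKM or from its rows, none of which reached 0.5 FPKM.

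With the replicate number as a block, 0 genes were called, against 4, and 887 genes and 941 rows had an unadjusted p under 0.05. Deviations of same-numbered libraries correlated at 0.0777 over genes and 0.0474 over rows, and nothing in the labels ties the numbers to a shared culture, so the block was not used. Depth is unknown, so no counting error could be set beside values as low as those of H19.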

Other observations

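The 4 lncRNAs together held 20.0 and 26.7 FPKM in MDA-MB-231-P3, against 22.2 and 24.4 FPKM in MDA-MB-231, so their total overlapped between the lines. DLGAP2-AS1 made up 78.3% and 87.2% of this total in MDA-MB-231-P3, against 75.6% and 77.3% in MDA-MB-231, and it therefore set the total. The number of GNAS-AS1 rows with at least 0.1 FPKM was 3 and 3 in MDA-MB-231-P3, against 7 and 4 in MDA-MB-231. GNAS-AS1:2, GNAS-AS1:4 and GNAS-AS1:13 reached 0.1 FPKM in MDA-MB-231 replicate 1 only. Such a count is tied to the level of the sum, and the share of all genes with such counts was not computed. The cause of the difference in counts was not tested, and no change in the number of rows is read from it. For H19 the number of rows with at least 0.1 FPKM was 3 and 1 in MDA-MB-231-P3, against 2 and 2 in MDA-MB-231. Rows GNAS-AS1:5 and GNAS-AS1:18 carried equal values, all near 0, in every library.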
